A study of Homo sapiens with 10 samples.

Results

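The 8 genes described here encode proteins that bring fatty acids into peroxisomes, shorten them there by β-oxidation, or shape the organelle. They are AMACR, ACOX3, HSD17B4, ACAA1, SCP2, EHHADH, ABCD3 and PEX11A. They were chosen by name from a table of 57353 gene symbols, with earlier results of these data known. All 8 were among the 17230 genes that had enough counts to be tested. Counts of mRNA reads per gene were available for 10 samples of LNCaP-C4-2 cells, which were derived from the LNCaP prostate cancer line and grow without androgen. The NT cells carried a non-targeting (scrambled) control shRNA and gave 2 samples, and the KD cells carried an shRNA against CPT1A and gave 3. The EV cells carried an empty vector and gave 2 samples, and the OE cells over-expressed CPT1A from a lentiviral cDNA and gave 3. The labels give puromycin at 1 µg/ml for NT and KD cells and blasticidin at 5 µg/ml for EV and OE cells, so vector and drug cannot be told apart from the arm wherever a line of the first pair is compared with a line of the second. All cells were grown in RPMI with serum. Knockdown rested on 1 shRNA, and the study describes 1 line of each kind with no separate transductions, so p-values measure the spread between samples of a line.

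CPT1A itself loads long-chain fatty acids onto carnitine at the outer mitochondrial membrane, which is the entry step to mitochondrial β-oxidation. Peroxisomes run a parallel pathway for substrates that mitochondria handle poorly, such as very long-chain and methyl-branched fatty acids and bile acid precursors. A transporter of the ABCD family brings the acyl-CoA in, an acyl-CoA oxidase makes the first double bond and releases hydrogen peroxide, a bifunctional enzyme hydrates and dehydrogenates the chain, and a thiolase cuts it. AMACR, α-methylacyl-CoA racemase, turns 2-methyl-branched acyl-CoAs into the stereoisomer that the branched-chain oxidases accept, and it is used in pathology as a tissue marker of prostate cancer.

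Most matrix enzymes of this pathway are sorted into peroxisomes by their last 3 residues, a signal of the serine-lysine-leucine type read by the receptor PEX5. The last 24 coding bases of the 8 canonical transcripts (GENCODE 44, GRCh38) are given because they show which of the 8 proteins end in such a signal. They are written 5′ to 3′ on the coding strand, with the last 3 codons before the stop in capitals.
AMACR: aataaggtaaaaGCTAGTCTCtaa
ACOX3: ggaagtctgaaaTCGAAGCTCtag
HSD17B4: cttaaagactacGCCAAGCTCtga
SCP2: cagccaggcaacGCTAAGCTCtga
EHHADH: ggctcccctagcAGTAAATTGtga
ACAA1: gtctttgaatacCCTGGGAACtga
ABCD3: gatacagttgagTTTGGCTCTtag
PEX11A: cagatgaagctgAAGACCCGTtag
The first 5 proteins end in a tripeptide with leucine last. ACOX3 and EHHADH end in serine-lysine-leucine, HSD17B4 and SCP2 in alanine-lysine-leucine, and AMACR in alanine-serine-leucine. ACAA1 ends in proline-glycine-asparagine, and this thiolase is known to be imported by an amino-terminal signal instead. ABCD3 and PEX11A, the membrane proteins, end in phenylalanine-glycine-serine and lysine-threonine-arginine.

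In every case these bases lie in the last exon of the canonical transcript. They are at chr5:33989093-33989116 for AMACR (exon 5, minus strand), chr4:8366961-8366984 for ACOX3 (exon 18, minus strand) and chr5:119541971-119541994 for HSD17B4 (exon 24, plus strand). For SCP2 they are at chr1:53050681-53050704 (exon 16, plus strand), for EHHADH at chr3:185192226-185192249 (exon 7, minus strand) and for ACAA1 at chr3:38123047-38123070 (exon 12, minus strand). Those of ABCD3 are at chr1:94517106-94517129 (exon 23, plus strand) and those of PEX11A at chr15:89683377-89683400 (exon 3, minus strand). The AMACR gene, from 33986165 to 34008104 on chromosome 5, shares 2660 exonic bases with the readthrough gene C1QTNF3-AMACR on the same strand. That gene had 1 to 15 counts per sample beside 378 to 802 for AMACR, and it was not called in any of the 5 comparisons. ACAA1 shares 1403 exonic bases with DLEC1, which is on the opposite strand and had 7 to 36 counts per sample beside 1531 to 2534 for ACAA1. Whether the counting used strand is not given in the sources used here, so reads from ACAA1 and DLEC1 cannot be assigned by strand.

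Samples held 23555205 to 28615770 counts in all. Levels are given as CPM, which are counts scaled to library size with the TMM method, as mean ± SD between the samples of a line. Differences are log2 fold changes from edgeR's quasi-likelihood test with their standard errors (SE), and a gene is called at an adjusted p under 0.05. CPT1A was at 265.5 and 261.7 CPM in the NT samples and at 81.25, 86.44 and 86.18 in the KD samples. It was at 325.7 and 317.7 CPM in the EV samples and at 869.8, 913.8 and 861.1 in the OE samples, as the labels say. All 11 prostate luminal marker genes passed the filter, and their summed level was 7658 to 7910 CPM in NT, 10300 to 11150 in KD, 10180 to 10580 in EV and 13530 to 13950 in OE cells. The 11 did not all move alike. In KD against NT cells 8 were higher and 2 lower (90.9% called, beside 57.5% of all tested genes). In OE against EV cells 8 were higher and 3 lower (100% beside 52.0%). FOLH1 was lower in both arms (-0.55 and -0.14). Of other cell types, 1 of 4 basal markers passed the filter (summed level 0.377 to 1.85 CPM, KRT5 at 0 counts), 2 of 5 fibroblast markers (10.18 to 18.23, COL1A2 at 0), 0 of 5 immune markers (at most 0.415, CD3E at 0) and 1 of 3 endothelial markers (6.279 to 9.459, PECAM1 at 0). The 5 neuroendocrine markers, of which 2 passed the filter, summed to 27.36 to 27.81 CPM in NT, 15.4 to 19.65 in KD, 20.51 to 22.6 in EV and 41.82 to 47.55 in OE cells, with CHGA at 0 to 1 counts. The summed level of 6 proliferation genes was 438 to 481.5 CPM in NT, 1130 to 1351 in KD, 436.8 to 440.8 in EV and 567.8 to 588 in OE cells, and the part of these differences in the results on the 8 genes was not tested. All 6 were called higher in KD against NT cells (100% beside 57.5% of all tested genes). In OE against EV cells 3 were higher, among them CCNB1 (48.1 to 130.5 CPM), 1 was lower (PCNA) and 2 were not called (66.7% beside 52.0%). In bulk RNA, fewer cells that express a gene and less RNA per cell cannot be told apart.

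The 8 genes were expressed at very different levels. Per kilobase of canonical transcript, the mean level over the 4 lines was highest for HSD17B4 at 76.2 CPM per kb, followed by ACAA1 at 45.7, SCP2 at 26.7 and ABCD3 at 14.4. ACOX3 stood at 5.98 CPM per kb, AMACR at 5.17, PEX11A at 3.28 and EHHADH at 2.54. The bifunctional enzyme HSD17B4 alone gave 40.8% to 46% of the summed CPM of the 8 genes in a sample. That sum was 439.7 and 436.4 CPM in NT, 508, 494.1 and 502.1 in KD, 463.6 and 464.2 in EV, and 443.3, 431.2 and 438 in OE cells. With all 8 genes the KD samples thus held the highest sums, and the NT and OE samples overlapped. Both points depended on HSD17B4. Without it the sums were 253.7 and 253.7 CPM in NT and 280.6, 268 and 271.1 in KD cells. They were 274.4 and 271.5 CPM in EV and 241.8, 239.7 and 239.5 in OE cells. The KD and EV samples then overlapped, and the OE samples lay below all others. The precision follows the depth, with 147 to 314 counts per sample for PEX11A, 200 to 304 for EHHADH and 4230 to 6965 for HSD17B4.

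**Figure D1:**
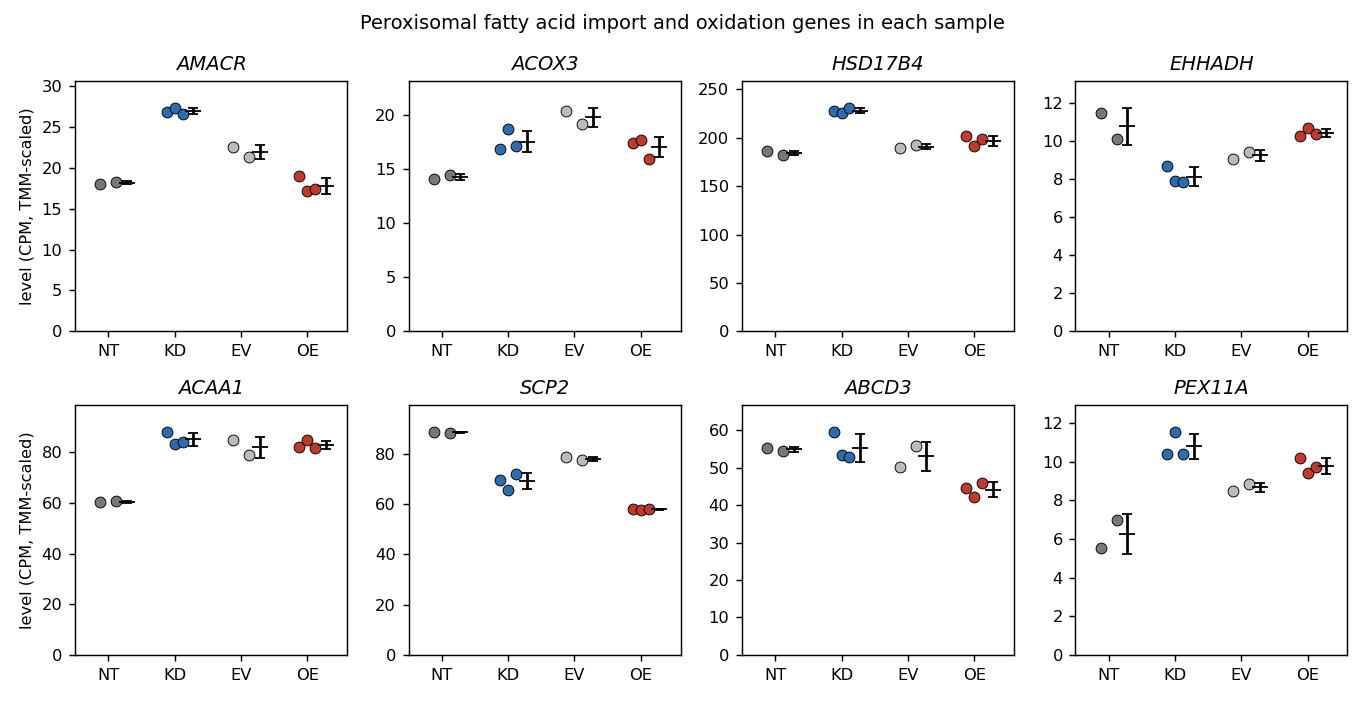
Level of each of the 8 genes in every sample, in CPM scaled with TMM, for NT, KD, EV and OE cells; points are samples, and the bar beside them is the mean with SD. AMACR lies highest in the 3 KD samples (26.60 to 27.34 CPM) and SCP2 lowest in the 3 OE samples (57.70 to 58.23 CPM).

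AMACR, the racemase, moved against CPT1A in both arms. It was at 18.07 and 18.31 CPM in the NT samples and at 26.89, 27.34 and 26.60 in the KD samples. It was at 22.50 and 21.34 CPM in the EV samples and at 18.94, 17.11 and 17.41 in the OE samples. Neither pair of lines overlapped, and the KD samples stood above all 7 others. AMACR rose 1.48-fold in KD compared with NT cells (log2 fold change 0.57, SE 0.0737, edgeR adjusted p = 4.72e-07). It was 1.23-fold lower in OE than in EV cells (log2 fold change -0.30, SE 0.075, edgeR adjusted p = 0.0018). The interaction, which is OE less EV with the KD less NT difference subtracted, was -0.86 (SE 0.105, edgeR adjusted p = 3.59e-07). The controls are part of this value, and the EV cells lay above the NT cells (log2 fold change 0.27, SE 0.0819, edgeR adjusted p = 0.0128), a call that was lost without EV replicate 1, NT replicate 1 or NT replicate 2 (edgeR adjusted p 0.139, 0.0779 and 0.0566). Compared directly and without the controls, AMACR was 1.51-fold lower in OE than in KD cells (log2 fold change -0.59, SE 0.0658, edgeR adjusted p = 3.24e-08).

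In order of the mean, AMACR was at 26.94 ± 0.371 CPM in KD cells (SD, n = 3), 21.92 ± 0.824 in EV (n = 2), 18.19 ± 0.167 in NT (n = 2) and 17.82 ± 0.985 in OE cells (n = 3). The NT and OE samples overlapped, whereas the other neighbours in this order did not. Of 7520 genes compared, those whose centred line means came closest to the AMACR pattern over the 4 lines were ELAVL2, ZNF726, RP2, MIR210HG and PQLC3, with root mean square differences of 0.0235, 0.0257, 0.0257, 0.0295 and 0.0313 in log2 CPM. RP2 rose in KD cells (0.53, edgeR adjusted p = 0.000196) and fell in OE cells (-0.34, edgeR adjusted p = 0.0129). PQLC3 did so as well, at 0.52 (edgeR adjusted p = 2.97e-05) and -0.25 (edgeR adjusted p = 0.0303). The other 3 were called in KD against NT but not in OE against EV. All of these genes were picked for line means close to those of AMACR in the same samples. Their directions follow from that choice, so the calls and adjusted p-values are not separate evidence for the AMACR pattern. Among the 8 genes, the closest patterns were those of ACOX3 and ACAA1 (0.108) and of ACAA1 and PEX11A (0.118), and the farthest apart were SCP2 and PEX11A (0.495).

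The promoter of AMACR is shown because AMACR alone of the 8 genes was called in all 5 comparisons. Of the 8 genes, 6 had windows of 250 bases before to 50 after the start in the RefSeq table (GRCh38.p14), and ACAA1 and EHHADH had no entry. The 100 bases before the AMACR start site at base 34008050 of chromosome 5 are chr5:34008051-34008150, read here on the minus strand.
AMACR upstream: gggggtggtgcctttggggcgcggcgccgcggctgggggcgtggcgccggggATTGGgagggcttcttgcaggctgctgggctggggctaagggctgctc
The capitals mark CCAAT read on the opposite strand, which begins 48 bases before this RefSeq start site. GENCODE places the 5′ end of the AMACR gene farther upstream, at base 34008104. Part of the 100 bases, the CCAAT match included, thus lies within the gene as GENCODE draws it. CCAAT on either strand was found in AMACR only of the 6 genes, and in 34.6% of the 35116 RefSeq windows of 300 bases. AGGTCA, the core of nuclear receptor sites, was in none of the members' windows and in 13.8% of all windows, and a direct repeat of it spaced by 1 base, the PPAR type, was in none and in 0.0228%. CACGTG was in none of the members' windows (7.26% of all windows), nor was TATAAA (11.5%). These are matches of letters within a short window and say nothing of binding.

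Of the 8 genes, 7 were called in KD against NT cells (5 higher, 2 lower), where 57.5% of all tested genes were called, and 5 of these passed the limit of 0.0001 that the study used, as 29.1% of all genes did. In OE against EV cells 4 of the 8 were called and all 4 were lower, where 52.0% of all genes were called, and 1 passed 0.0001, as 21.9% of all genes did. The median log2 fold change of the 8 genes was 0.303 in KD against NT and -0.101 in OE against EV, beside -0.0196 and -0.0198 over all tested genes. In the interaction 7 were called (1 higher, 6 lower; median -0.375), where 44.3% of all genes were called, and 2 passed 0.0001, as 15.9% of all genes did. The count of calls in OE against EV was close to that of the background and fell to 2 when EV replicate 2 was left out, so the number alone does not set these genes apart. The share of all genes called without that sample is not given here. What differs among them is the direction, which is given gene by gene below.

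**Figure D2:**
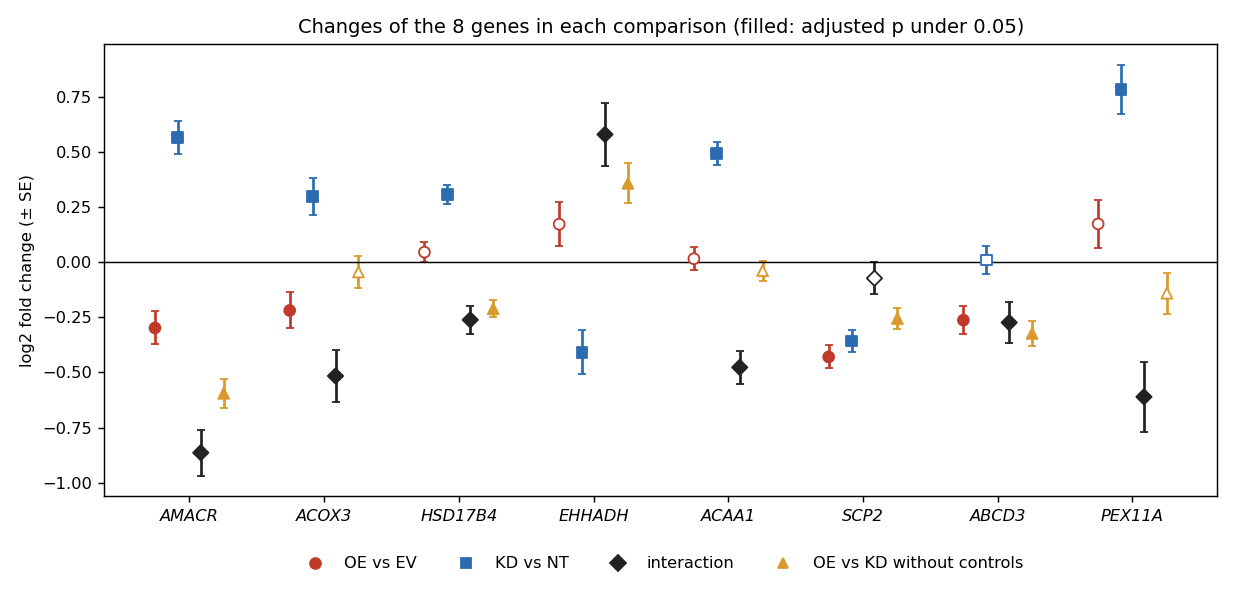
Log2 fold change (± SE) of each of the 8 genes in OE vs EV, KD vs NT, the interaction and OE vs KD without the controls; filled symbols are called at an adjusted p under 0.05. AMACR stands at 0.57 in KD vs NT and -0.30 in OE vs EV, and SCP2 lies below 0 in all 4.

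ACOX3, the oxidase that starts β-oxidation of branched chains such as pristanoyl-CoA, is the step that takes the acyl-CoA AMACR provides. It was at 14.07 and 14.50 CPM in NT, 16.85, 18.70 and 17.15 in KD, 20.44 and 19.19 in EV, and 17.43, 17.74 and 15.98 in OE cells. The EV samples were the highest and the NT samples the lowest, and the KD and OE samples overlapped. ACOX3 rose 1.23-fold in KD cells (log2 fold change 0.30, SE 0.084, edgeR adjusted p = 0.00396) and was lower in OE than in EV cells (-0.22, SE 0.0816, edgeR adjusted p = 0.0279). The second call was lost with DESeq2, without the filter, with the replicate block and when EV replicate 1, EV replicate 2 or OE replicate 3 was left out (adjusted p 0.0522 to 0.253). The interaction was -0.52 (SE 0.117, edgeR adjusted p = 0.000883), but the EV cells lay 0.47 above the NT cells (SE 0.091, edgeR adjusted p = 0.00027), and OE and KD cells differed by -0.04 (SE 0.0737, edgeR adjusted p = 0.631).

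ACOX2, a relative of ACOX3 that oxidises branched chains of bile acid precursors, followed the same order as ACOX3, at 10.72 ± 0.00555 CPM in NT cells, 16.21 ± 0.746 in KD, 21.36 ± 0.145 in EV and 15.28 ± 0.987 in OE cells. It rose in KD cells (0.59, edgeR adjusted p = 3.2e-06) and fell in OE cells (-0.49, edgeR adjusted p = 2.33e-05), and its EV cells lay 0.99 above its NT cells (edgeR adjusted p = 1.48e-08). For this gene too OE and KD cells were not called different (-0.09, edgeR adjusted p = 0.338). Per kilobase, ACOX2 was at 6.92 CPM per kb, beside 5.98 for ACOX3.

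The middle steps are carried out by alternative bifunctional enzymes, and these moved apart in KD cells. HSD17B4, the D-bifunctional protein that handles branched and very long chains, was at 186.0 and 182.7 CPM in NT, 227.4, 226.1 and 231.0 in KD, 189.2 and 192.7 in EV, and 201.5, 191.4 and 198.5 in OE cells. The KD samples stood above all others and the EV and OE samples overlapped. HSD17B4 rose 1.24-fold in KD cells (log2 fold change 0.31, SE 0.0445, edgeR adjusted p = 2.31e-06) and was at 0.05 in OE against EV (SE 0.0445, edgeR adjusted p = 0.403), with an interaction of -0.26 (SE 0.0627, edgeR adjusted p = 0.0015).

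EHHADH, the L-bifunctional protein that takes straight chains and dicarboxylic acids, was at 11.47 and 10.09 CPM in NT, 8.696, 7.890 and 7.828 in KD, 9.048 and 9.452 in EV, and 10.25, 10.68 and 10.37 in OE cells. The KD samples were the lowest, and the OE samples lay within the range of the NT samples. EHHADH fell in KD cells, by 1.33-fold (log2 fold change -0.41, SE 0.1, edgeR adjusted p = 0.0012), a call that was lost without NT replicate 1 (edgeR adjusted p = 0.0508). In OE against EV cells the samples did not overlap, but the difference of 0.17 was not called (SE 0.101, edgeR adjusted p = 0.159). It was the only one of the 8 genes with a positive interaction (0.58, SE 0.143, edgeR adjusted p = 0.00181), and it was 1.28-fold higher in OE than in KD cells (0.36, SE 0.0912, edgeR adjusted p = 0.00154). HSD17B4 in turn was lower in OE than in KD cells (-0.21, SE 0.0395, edgeR adjusted p = 6.33e-05). As a share of HSD17B4 counts, EHHADH counts were 6.17% and 5.52% in NT, 3.82%, 3.49% and 3.39% in KD, 4.78% and 4.91% in EV, and 5.09%, 5.58% and 5.22% in OE samples. The 3 KD samples had the lowest shares of the 10, although this ratio within samples was described and not tested.

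The last step is thiolytic cleavage, by ACAA1 for straight chains and by the thiolase form of SCP2 for branched chains, and the pair moved in opposite directions in KD cells. ACAA1 was at 60.25 and 60.80 CPM in NT, 88.26, 83.32 and 84.05 in KD, 84.94 and 79.18 in EV, and 82.28, 84.95 and 81.87 in OE cells. The NT samples stood alone at the bottom, and the samples of the other 3 lines overlapped. ACAA1 rose 1.41-fold in KD compared with NT cells (0.49, SE 0.0527, edgeR adjusted p = 2.06e-08), and EV cells were 1.36-fold above NT cells by a like amount (0.44, SE 0.0574, edgeR adjusted p = 2.35e-06). Neither OE against EV (0.02, SE 0.0515, edgeR adjusted p = 0.815) nor OE against KD (-0.04, SE 0.0458, edgeR adjusted p = 0.499) was called. The interaction of -0.48 (SE 0.0735, edgeR adjusted p = 1.04e-05) thus contains a difference between the control lines of nearly its own size, and vector and drug cannot be told apart there.

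SCP2 fell in both arms. It was at 88.89 and 88.52 CPM in NT, 69.79, 65.80 and 72.04 in KD, 78.70 and 77.60 in EV, and 58.15, 57.70 and 58.23 in OE cells. No pair of lines overlapped, in the order NT, EV, KD and OE. SCP2 was 1.28-fold lower in KD than in NT cells (-0.36, SE 0.0508, edgeR adjusted p = 1.79e-06) and 1.35-fold lower in OE than in EV cells (-0.43, SE 0.0521, edgeR adjusted p = 2.9e-07), the only call of the 8 genes in that comparison to pass 0.0001. The interaction of -0.07 was not called (SE 0.0731, edgeR adjusted p = 0.449), so the fall in the arms was not shown to differ. EV cells lay below NT cells (-0.18, SE 0.0559, edgeR adjusted p = 0.0133), a call lost without the filter and without any single control sample (edgeR adjusted p 0.0514 to 0.0917). The SCP2 gene makes both the thiolase and the shorter lipid transfer protein, and counts per gene do not separate these.

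ABCD3, also called PMP70, is the transporter of the peroxisomal membrane that imports branched-chain and dicarboxylic acyl-CoAs. It was at 55.35 and 54.45 CPM in NT, 59.68, 53.38 and 52.97 in KD, 50.27 and 55.86 in EV, and 44.55, 42.14 and 45.89 in OE cells. The OE samples were the lowest of the 10, and the samples of the other 3 lines overlapped. ABCD3 was lower in OE than in EV cells (-0.26, SE 0.065, edgeR adjusted p = 0.00155) and in OE than in KD cells (-0.32, SE 0.058, edgeR adjusted p = 3.75e-05), whereas KD against NT gave 0.01 (SE 0.0635, edgeR adjusted p = 0.897). The difference from EV was not called without EV replicate 2 (edgeR adjusted p = 0.0805). The interaction of -0.27 (SE 0.091, edgeR adjusted p = 0.0173) was lost without EV replicate 2, KD replicate 1 or NT replicate 2 (edgeR adjusted p 0.148, 0.0696 and 0.0614).

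PEX11A is a membrane protein that elongates peroxisomes before they divide, and is known as the inducible form of the family. It was at 5.546 and 6.990 CPM in NT, 10.42, 11.56 and 10.42 in KD, 8.502 and 8.843 in EV, and 10.21, 9.414 and 9.712 in OE cells. The order KD, OE, EV and NT held without overlap of samples between neighbours. PEX11A rose 1.72-fold in KD cells (0.79, SE 0.113, edgeR adjusted p = 2.04e-06), which was the largest change of the 8 genes in either arm. OE against EV gave 0.17 and was not called (SE 0.109, edgeR adjusted p = 0.189), and OE against KD gave -0.14 (SE 0.094, edgeR adjusted p = 0.206). The interaction was -0.61 (SE 0.158, edgeR adjusted p = 0.00279), and EV cells lay 0.47 above NT cells (SE 0.126, edgeR adjusted p = 0.0054), which fell to 0.312 and was not called without NT replicate 1 (edgeR adjusted p = 0.134).

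PEX11G, of the same family, showed the opposite sign in KD against NT, without a call. It was at 12.43 ± 0.726 CPM in NT cells, 10.86 ± 0.856 in KD, 14.23 ± 0.335 in EV and 19.26 ± 0.477 in OE cells, and it rose in OE cells (0.43, edgeR adjusted p = 0.00017) with -0.20 in KD cells (edgeR adjusted p = 0.071). Its interaction was positive, at 0.63 (edgeR adjusted p = 0.000236), where that of PEX11A was -0.61. The difference between the genes was not tested. Per kilobase, PEX11G was at 13.2 CPM per kb, above PEX11A at 3.28.

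**Figure D3:**
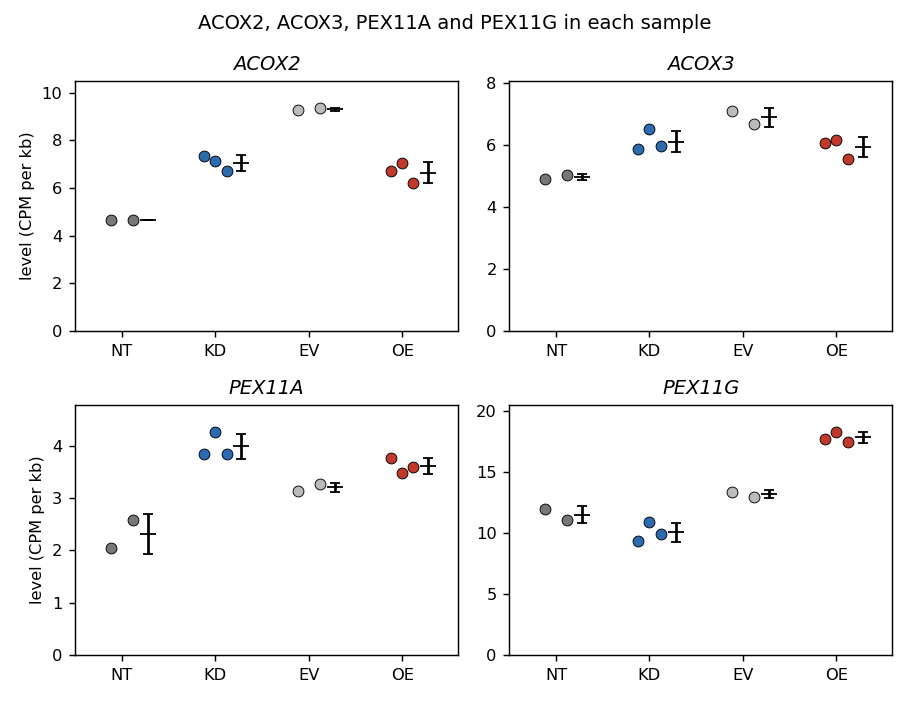
Level of ACOX2, ACOX3, PEX11A and PEX11G in every sample, in CPM per kb of canonical transcript, for NT, KD, EV and OE cells; points are samples, and the bar beside them is the mean with SD. ACOX2 and ACOX3 are highest in EV cells, and PEX11G is highest in OE cells where PEX11A is highest in KD cells.

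The 8 genes could be sorted by how far the control lines differed and by whether OE and KD cells differed directly. Between EV and NT cells 5 of the 8 were called (4 higher, 1 lower; median 0.16), where 34.1% of all genes were called. That count fell to 2 without NT replicate 1 and to 3 without EV replicate 1 or NT replicate 2. The shares of all genes called without these samples are not given here, so the fall shows nothing particular to the 8 genes. ACOX3, ACAA1 and PEX11A differed by 0.44 to 0.47 there and were not called between OE and KD cells. Between OE and KD cells 5 of the 8 were called (1 higher, 4 lower; median -0.175), where 59.8% of all genes were called. AMACR, HSD17B4, SCP2 and ABCD3 were lower in OE cells and EHHADH was higher. Scaling to library size alone moved the median of all tested genes by -0.13 in that comparison and called 61.4% of them. ACOX3, ACAA1 and PEX11A then stood at -0.17, -0.17 and -0.27 and were called, but these values differ from those with TMM by the common shift alone and show nothing particular to the 3 genes. AMACR, HSD17B4, ABCD3 and EHHADH were called in the interaction and in the direct comparison, in the same direction.

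The remaining genes of peroxisomal oxidation gave calls in both directions. Apart from relatives of members, genes named from this and the next lists were picked for the largest interactions. Their opposite moves in the arms follow in part from that choice. Of 24 listed genes 21 were tested, and ABCD2, ACOT4 and BAAT had at most 4 counts in any sample. In KD against NT cells 11 were higher and 5 lower (76.2% called, beside 57.5% of all tested genes; median 0.196), and in OE against EV cells 6 were higher and 7 lower (61.9% beside 52.0%; median -0.134). In the interaction 5 were higher and 10 lower (71.4% beside 44.3%; median -0.223). Between EV and NT cells 11 were higher and 4 lower (71.4% beside 34.1%; median 0.242), and this difference is part of the interaction. Vector and drug cannot be told apart there. Compared directly, 7 were higher and 7 lower in OE than in KD cells (66.7% beside 59.8%; median 0.0147). Scaling to library size alone moved the median of all genes by -0.0977 in OE against EV and -0.134 in the interaction. With it 4 of these genes were higher and 11 lower in OE against EV, and 1 higher and 12 lower in the interaction. It called 53.4% and 47.0% of all genes there, and its shift towards lower values is common to all genes. CROT, which puts carnitine on medium chains that leave the peroxisome, moved as AMACR did, with 0.84 in KD cells (edgeR adjusted p = 1.91e-06) and -0.53 in OE cells (edgeR adjusted p = 0.00122). CRAT, which does so for acetyl groups, moved the opposite way, with -0.22 in KD cells (edgeR adjusted p = 0.0186) and 0.29 in OE cells (edgeR adjusted p = 0.00178). ACAD11, an acyl-CoA dehydrogenase, fell in both arms, by 1.54 in KD cells (edgeR adjusted p = 1.96e-07) and by 0.71 in OE cells (edgeR adjusted p = 0.00805) on the log2 scale, and ECI2, an enoyl-CoA isomerase, rose in both, by 0.39 (edgeR adjusted p = 1.62e-07) and 0.18 (edgeR adjusted p = 0.00258).

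**Figure D4:**
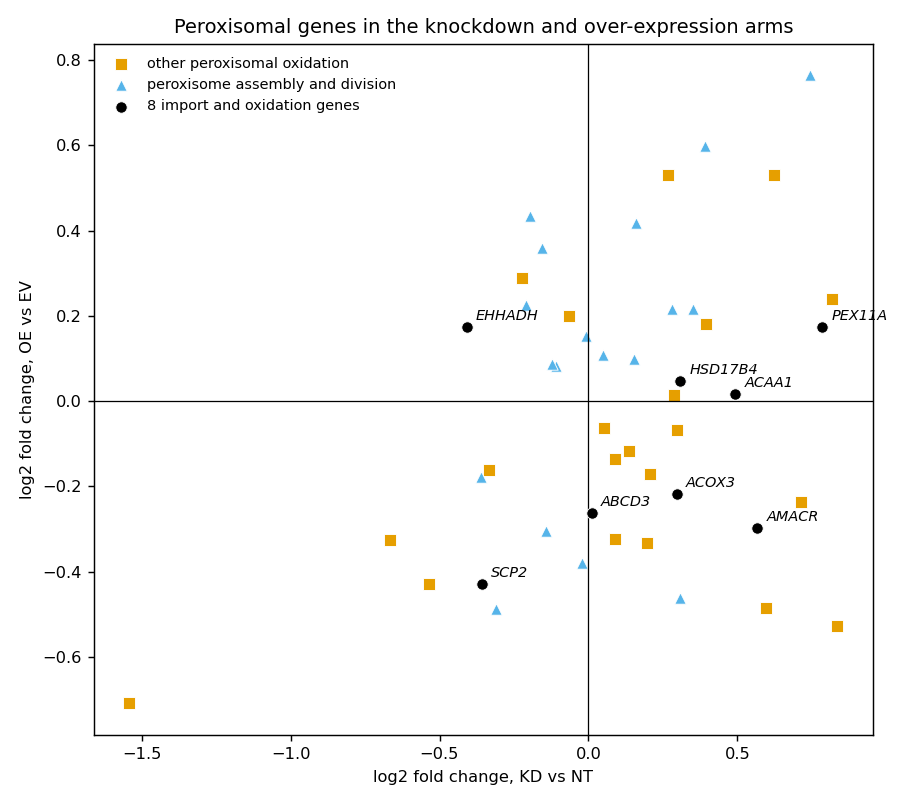
Log2 fold change in KD vs NT (horizontal) against that in OE vs EV (vertical) for the 8 genes (named circles), the other tested genes of peroxisomal oxidation (squares) and those of peroxisome assembly and division (triangles); each point is a gene and the lines mark 0. AMACR (0.57, -0.30), ACOX3 (0.30, -0.22) and CROT (0.84, -0.53) lie at the lower right, SCP2 (-0.36, -0.43) at the lower left and EHHADH (-0.41, 0.17) at the upper left.

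Among 18 genes of peroxisome assembly and division, 6 were higher and 2 lower in KD against NT cells and 9 were higher and 4 lower in OE against EV cells (medians -0.0157 and 0.131). The shares called were 44.4% in KD against NT, below the 57.5% of all tested genes, and 72.2% in OE against EV, above the 52.0% of all genes. DNM1L, the GTPase that cuts dividing peroxisomes and mitochondria, rose in KD cells (0.31, edgeR adjusted p = 0.000189) and fell in OE cells (-0.46, edgeR adjusted p = 1.4e-06). Of 5 genes of ether lipid synthesis, 2 were higher and 2 lower in KD cells and 1 was higher and 3 lower in OE cells (80% called in each, beside 57.5% and 52.0% of all genes). FAR1 and FAR2, the fatty acyl-CoA reductases that supply this route, both fell in OE cells, by 0.71 (edgeR adjusted p = 1.63e-07) and 0.69 (edgeR adjusted p = 0.000101) on the log2 scale. In KD cells FAR1 fell (-0.41, edgeR adjusted p = 9.96e-05) and FAR2 rose (0.41, edgeR adjusted p = 0.009).

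Hydrogen peroxide from the oxidase step is removed by catalase and PRDX5, and these genes were lower in KD cells. CAT was at 144.7 ± 1.5 CPM in NT and 114.3 ± 3.19 in KD cells (-0.34, edgeR adjusted p = 8.71e-07), and PRDX5 went from 221.1 and 223.8 CPM in NT to 117.3, 144.2 and 125.6 in KD samples (-0.79, edgeR adjusted p = 6.79e-11). Neither was called in OE against EV (0.03, edgeR adjusted p = 0.679, and 0.02, edgeR adjusted p = 0.84), and their interactions were called, at 0.36 (edgeR adjusted p = 6.94e-05) and 0.80 (edgeR adjusted p = 5.05e-08). LONP2, the peroxisomal protease, gave -0.22 in OE cells (edgeR adjusted p = 0.00033). In all, 2 of these 6 genes were higher and 3 lower in KD cells, and 2 were higher and 2 lower in OE cells (83.3% and 66.7% called, beside 57.5% and 52.0% of all genes). PRDX5 is also found in mitochondria and the cytosol.

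The PPAR system was taken as the nuclear receptors known to drive peroxisomal oxidation genes, with their partner receptors, coactivators and a corepressor. Of its 10 listed genes 9 were tested, and RXRG had 0 counts. In KD cells 3 were higher and 1 lower, and in OE cells 2 were higher and 3 lower (44.4% and 55.6% called, beside 57.5% and 52.0% of all genes). PPARGC1B, a coactivator, rose in KD cells (0.64, edgeR adjusted p = 6.41e-08) and fell in OE cells (-0.35, edgeR adjusted p = 0.000318), and RXRB, a partner receptor, fell in KD cells (-0.38, edgeR adjusted p = 1.31e-05) and rose in OE cells (0.38, edgeR adjusted p = 1.62e-05). PPARG was lower in OE than in EV cells (-0.58, edgeR adjusted p = 9.04e-06) with 0.15 in KD against NT cells (edgeR adjusted p = 0.204). Its EV cells lay 1.06 above its NT cells (edgeR adjusted p = 2.84e-08). Compared directly, PPARG was higher in OE than in KD cells (0.33, edgeR adjusted p = 0.0022). Of 15 enzymes of mitochondrial β-oxidation, 8 were higher and 2 lower in KD cells (66.7% called; median 0.16) and 3 were higher and 5 lower in OE cells (53.3% called; median 0.0498), beside 57.5% and 52.0% of all genes called. ECHS1, the enoyl-CoA hydratase of short chains, went from 159.9 ± 3.36 CPM in NT to 270.3 ± 9.42 in KD cells (0.76, edgeR adjusted p = 5.31e-12) and from 189.2 ± 12.4 in EV to 163.7 ± 4.6 in OE cells (-0.21, edgeR adjusted p = 0.00112), the directions of AMACR. ACADL, the long-chain dehydrogenase, moved likewise, at 0.65 (edgeR adjusted p = 0.000521) and -0.73 (edgeR adjusted p = 0.000101). Its EV cells lay 0.95 above its NT cells (edgeR adjusted p = 4.28e-05). ACADL was lower in OE than in KD cells (-0.43, edgeR adjusted p = 0.00571), but the samples of these lines overlapped, unlike those of AMACR. HADHB, the thiolase subunit of the trifunctional protein, by contrast fell in KD cells (-0.25, edgeR adjusted p = 0.000106). ECI1, the mitochondrial relative of ECI2, rose in OE cells (0.38, edgeR adjusted p = 2.2e-06) with 0.09 in KD cells (edgeR adjusted p = 0.179). ECHS1 and ACADL were named for the most negative interactions among the 15, so sharing the directions of AMACR follows in part from that choice.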

How the data were processed

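RNA from 10 samples of LNCaP-C4-2 lines was sequenced in pairs on a NovaSeq from poly(A) libraries. The authors trimmed reads with BBDuk, mapped them with STAR 2.6.0a to the Ensembl hg38.p12 transcriptome and deposited raw counts per gene, 57353 symbols in 10 columns. How multi-mapped reads were handled is not given in the sources used here. Samples were grouped by line as the labels give it. Of all genes, 17230 passed filterByExpr and were tested with the quasi-likelihood F test of edgeR 4.0.16 under R 4.3.3 (TMM scaling, all 10 samples, 1 mean per line), with Benjamini-Hochberg adjustment over all tested genes; SE is the log2 fold change over the square root of F. The common biological coefficient of variation was 0.0446, and 3 counts correspond to 0.09951 to 0.1358 CPM. Samples of 1 line differed beyond counting noise (chi-square per degree of freedom 2.082 to 7.293), so none was merged.

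The 8 genes and the lists were chosen with earlier results of these data known. Named besides them were the relatives of members, up to 2 genes per list with the largest interaction in each direction (adjusted p under 0.05, average log2 CPM of at least 1), and the 5 genes nearest to AMACR in line means among genes with a range of at least 0.5. Some genes that this rule names are not reported here. Positions came from GENCODE 44 on GRCh38, matched by symbol. The calling was tested on simulated data. Alternatives were DESeq2 1.42.0, its size factors, library size alone, limma-voom (limma 3.58.1), no filter or at least 10 counts, the replicate block, only the lines compared, the limit of 0.0001 and leaving out each sample.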

Additional observations from a re-analysis of the deposited data

How the results depend on the processing

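The 8 genes gave the same direction and side of the threshold in 720 of 752 alternative values, fell short of it in 20, passed it newly in 4 and changed sign in 8. At 0.0001 the calls among the 8 fell to 1 in OE vs EV, 2 in the interaction and 1 in EV vs NT. Among the other peroxisomal oxidation genes they fell to 5, 9 and 5 in OE vs EV, KD vs NT and the interaction. Of all genes, 21.9% passed 0.0001 in OE vs EV, 29.1% in KD vs NT, 15.9% in the interaction and 8.2% in EV vs NT. Library size alone gave 8 calls in OE vs KD, where it called 61.4% of all genes, and the new calls of ACAA1 (-0.168), ACOX3 (-0.174) and PEX11A (-0.27) followed from its shift of all genes by -0.13. Leaving out each sample gave 2 to 4 calls among the 8 in OE vs EV, 6 to 7 in KD vs NT, 6 to 7 in the interaction, 2 to 5 in EV vs NT (2 without NT replicate 1) and 5 in each case in OE vs KD. For the other peroxisomal genes it gave 10 to 15, 14 to 16 and 10 to 14 in OE vs EV, KD vs NT and the interaction. The signs that changed were all of values without a call. These were ABCD3 in EV vs NT without EV replicate 1 (0.0144; lowest without EV replicate 2, -0.126) and in KD vs NT with at least 10 counts (-0.00596) or without KD replicate 1 (-0.0509; highest without KD replicate 3, 0.0399). They were also ACAA1 in OE vs EV with library size (-0.0816) or without EV replicate 2 (-0.0315; highest without EV replicate 1, 0.0829), HSD17B4 there with library size (-0.0515), and ACOX3 in OE vs KD without KD replicate 2 (0.000598) or OE replicate 3 (0.00282; lowest without OE replicate 2, -0.0713). The cause was not tested.

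Same-numbered samples shared only a number (mean correlation of deviations -0.00282 over 13 pairs), and 3 of the 6 KD and OE samples correlated best with their own number. With the replicate block the 8 genes gave 3, 7, 7, 5 and 5 calls in OE vs EV, KD vs NT, the interaction, EV vs NT and OE vs KD. KD replicate 2 and OE replicate 2 stood farthest from their lines, and without both of them (a choice made after seeing the data) the calls were 4, 7, 7, 5 and 5. Shares of all genes called with the block, without both samples or without each sample in turn are not given here. The counts for these settings thus show how stable the calls were and nothing particular to the 8 genes. Library size alone moved the median log2 fold change of all genes by -0.0977 in OE vs EV, 0.0364 in KD vs NT and -0.134 in the interaction. EHHADH and PEX11A had the fewest counts, which limits small changes there.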
